A study of Xenopus tropicalis with 12 samples.

Results

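A set of 6 mitochondrially encoded genes was followed through the tadpole intestine: COX1, COX2 and COX3, the core subunits of cytochrome c oxidase, ATP6 and ATP8, 2 subunits of ATP synthase, and CYTB, the cytochrome b subunit of complex III. They are 6 of the 19921 genes of the count table and were taken by position. The 13 protein-gene rows of the mitochondrial sequence have the start and end of the 13 mitochondrial protein genes in the reference table of assembly UCB_Xtro_10.0. The build of the count table itself is not given in the sources used here. On that sequence COX1 (ENSXETG00000034371) runs from 5395 to 6951, COX2 (ENSXETG00000034374) from 7111 to 7798, ATP8 (ENSXETG00000034376) from 7874 to 8041, ATP6 (ENSXETG00000034377) from 8032 to 8714, COX3 (ENSXETG00000034378) from 8715 to 9498 and CYTB (ENSXETG00000034390) from 14258 to 15399. All 6 are on the plus strand, each as a single row without introns. Their sequences were not used here.

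The intestines came from Xenopus tropicalis tadpoles of stages 52 to 54, wild type or without thyroid hormone receptor alpha, TRα(-/-), born to the same parents. Tadpoles were untreated or given 10 nM T3, the active thyroid hormone, for 18 h. Each of the 4 groups holds 3 libraries, which are technical replicates of 1 RNA pool from several tadpoles. The p-values below therefore rest on technical spread within a pool, not on spread between animals, and every difference is one between pools. By the column labels, which name the groups here, contWT is untreated wild type, contHomo untreated TRα(-/-), T3WT wild type with T3 and T3Homo TRα(-/-) with T3. The sample titles instead describe contHomo as wild type with T3 and T3WT as TRα(-/-) without T3. Titles and column labels give contWT and T3Homo the same identity.

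Mitochondrial DNA of vertebrates is transcribed from both strands into long precursors that span many genes. The precursors are cut, largely at the transfer RNAs that lie between the genes, and the resulting messenger RNAs differ in stability. The encoded subunits are assembled with many nuclear-encoded ones into the respiratory chain and ATP synthase, which supply ATP to absorptive tissue such as the intestine. Thyroid hormone is a textbook regulator of oxidative metabolism. COX1 carries the catalytic centre of cytochrome c oxidase, COX2 receives electrons from cytochrome c, and COX3 is a core subunit without redox centre. CYTB is the sole mitochondrially encoded subunit of complex III, ATP6 forms part of the proton path of ATP synthase, and ATP8 is a small membrane subunit of the same enzyme. In human mitochondria ATP8 and ATP6 are read from a shared messenger RNA.

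Library totals ranged from 34322099 to 44755390 counts. The gene identifiers of the nuclear genome are not paired with names in the sources used here, so the deleted receptor gene, intestinal markers and nuclear-encoded partners of the 6 genes were not analysed here. T3WT stood apart from the other groups in its scaling, with a TMM factor, which corrects for the make-up of a library, of 1.21 against 0.912 to 0.964 in the other 9 libraries. The part of this factor in the differences below was not tested beyond the other scalings given with them. CPM below means counts scaled to the library size times this factor, in the usual per-million unit. In a bulk sample, fewer cells of a type and less RNA per cell cannot be told apart.

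COX2 and COX3 were the most abundant of the 6 per kilobase of gene, COX1 followed, and CYTB, ATP6 and ATP8 were several times lower. In contWT, COX2 stood at 7161 ± 195 CPM per kb (SD, n = 3, here and for all means below), COX3 at 6297 ± 155, COX1 at 4494 ± 79.0, CYTB at 977 ± 20.8, ATP6 at 934 ± 24.5 and ATP8 at 562 ± 7.67. The order of the means was the same in all 4 groups. Per kilobase, COX1 was 4.60-fold above CYTB in contWT, and between 4.05-fold and 4.31-fold in the other groups. CYTB and ATP6 were the closest neighbours in contWT, T3WT and T3Homo, and COX2 and COX3 in contHomo. The levels of CYTB and ATP6 per kilobase overlapped between libraries in all groups but contHomo. In T3Homo they were at 801 ± 14.9 and 800.1 ± 9.88 CPM per kb, a ratio of 1.001. In contHomo the libraries of CYTB and ATP6 did not overlap, at a ratio of 1.06. Compared within each library, however, CYTB was above ATP6 throughout contWT (ratio 1.04 to 1.05), T3WT (1.01 to 1.07) and contHomo (1.03 to 1.09). In T3Homo the ratio ran from 0.996 to 1.01. COX2 and COX3 were also close, with a ratio of 1.05 in contHomo and 1.31 in T3WT, and their libraries did not overlap in any group. ATP8 and ATP6 share 10 bases, and COX3 starts at the base after ATP6 ends. How reads over 2 genes were counted is not given in the sources used here, so the division of counts among ATP8, ATP6 and COX3 is uncertain.

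**Figure D1:**
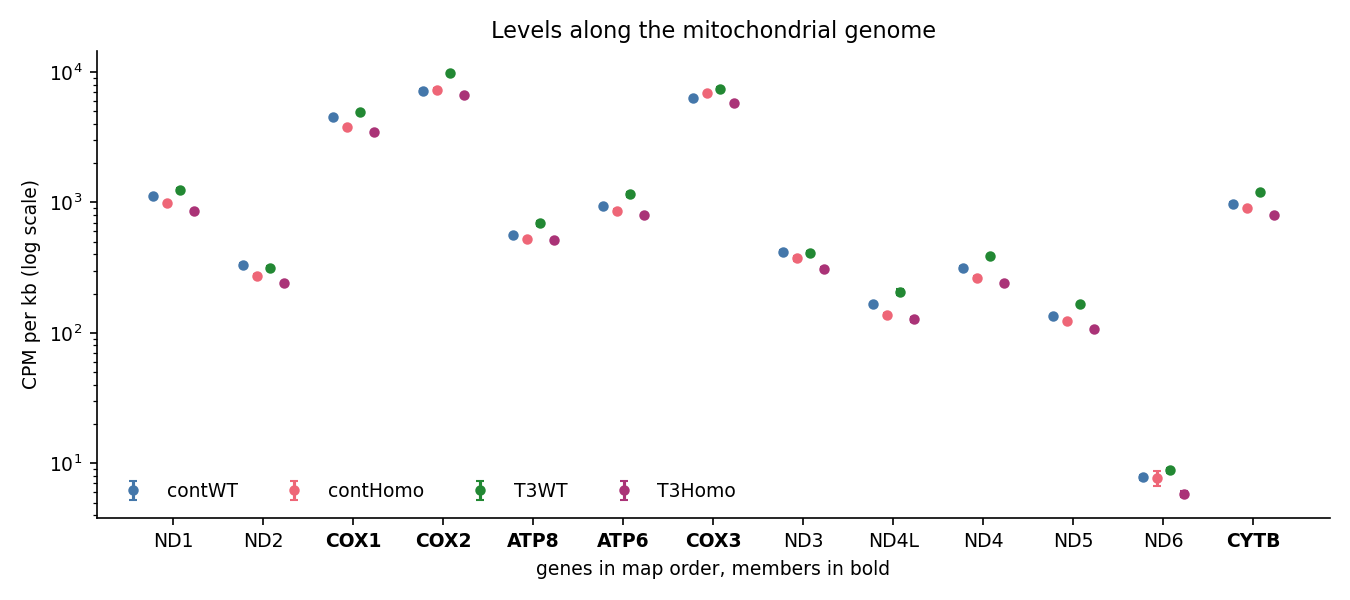
Mean level in CPM per kb (log axis, error bars SD over 3 libraries) of the 13 mitochondrial protein genes in map order, by group, with the 6 genes described here in bold. COX1, COX2 and COX3 lie above CYTB, ATP6 and ATP8 in every group.

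Among all 13 protein genes, COX2, COX3 and COX1 held ranks 1, 2 and 3 per kilobase in every group, as the plot of levels in map order shows. ND1, a complex I subunit, held rank 4, and CYTB, ATP6 and ATP8 held ranks 5, 6 and 7. The 6 genes together took 89.1% of the counts of the 13 in contWT. Abundance did not follow map order: ATP8 and ATP6 lie between COX2 and COX3 and were several times less abundant per kilobase than either.

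Read as a share of all counts, the 6 genes took 1.54 ± 0.0135% in T3Homo and 2.72 ± 0.0563% in T3WT. Between them lay contHomo at 1.69 ± 0.0216% and contWT at 1.72 ± 0.0234%. After TMM scaling the sum was 16007 ± 165 CPM for T3Homo and 22445 ± 499 for T3WT, with contHomo at 18100.2 ± 284 and contWT at 18709 ± 408. T3WT was the highest group and T3Homo the lowest on both scales. The gap between T3WT and contWT was wider for the share of all counts than with TMM factors.

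COX1, the catalytic subunit of cytochrome c oxidase, was highest in T3WT and lowest in T3Homo. Its level was 6955, 6901 and 7136 CPM in the contWT libraries and 7479, 7741 and 7607 CPM in those of T3WT. The Homo columns gave 5936, 5871 and 5934.5 CPM for contHomo and 5299, 5383 and 5436 CPM for T3Homo. The 4 groups did not overlap, and each library of contWT was above every library of contHomo. Technical replicates of a pool lie close together, so non-overlap does not by itself set a gene apart, here or for the genes below. Its frequency over all genes with TMM factors was not given. Scaled to the counts of the mitochondrial protein genes, 72.2% of all combinations of gene and comparison of 2 groups did not overlap. That scale shifts the median over all genes, so this percentage is no background for levels with TMM factors.

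COX2, the subunit that receives electrons from cytochrome c, had a different order. Its levels were 4831, 4868 and 5080.1 CPM in the contWT libraries and 6524, 6833 and 6774 CPM in those of T3WT. The Homo columns gave 5082, 4808 and 5181 CPM for contHomo and 4537, 4574 and 4631 CPM for T3Homo. The contWT and contHomo libraries overlapped, T3WT was above all others and T3Homo below all others.

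COX3 was at 4918, 4826 and 5067 CPM in the contWT libraries and 5689.9, 5984 and 5864 CPM in those of T3WT. The Homo columns gave 5454, 5411 and 5476 CPM for contHomo and 4489, 4492 and 4537 CPM for T3Homo. For this subunit contHomo lay above contWT with no overlap, the opposite of COX1, while T3WT was again the highest group and T3Homo the lowest.

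CYTB, of complex III, was at 1108, 1097 and 1143 CPM in the contWT libraries and 1356.5, 1399.8 and 1373 CPM in those of T3WT. The Homo columns gave 1045, 1022 and 1053 CPM for contHomo and 899, 912 and 932 CPM for T3Homo. The 4 groups did not overlap, and their order from the top was T3WT, contWT, contHomo and T3Homo, as for COX1. The limit on non-overlap given with COX1 holds here too.

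ATP6 was at 634, 624 and 656 CPM in the contWT libraries and 756, 830.4 and 776 CPM in those of T3WT. The Homo columns gave 607, 576 and 579.6 CPM for contHomo and 539, 548 and 552 CPM for T3Homo. Its groups came in the same order without overlap. T3WT replicate 2 was the highest single library, as it was for each of the 6 genes. ATP8 was at 94.6, 95.6 and 93.1 CPM in the contWT libraries and 111, 121 and 115 CPM in those of T3WT. The Homo columns gave 89.0, 89.2 and 87.0 CPM for contHomo and 84.7, 87.9 and 86.6 CPM for T3Homo. Here contHomo and T3Homo overlapped, and the other groups were apart. ATP8 had the fewest reads of the 6, from 2903 to 5638 counts per library, where COX1 had 191126 to 360202.

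**Figure D2:**
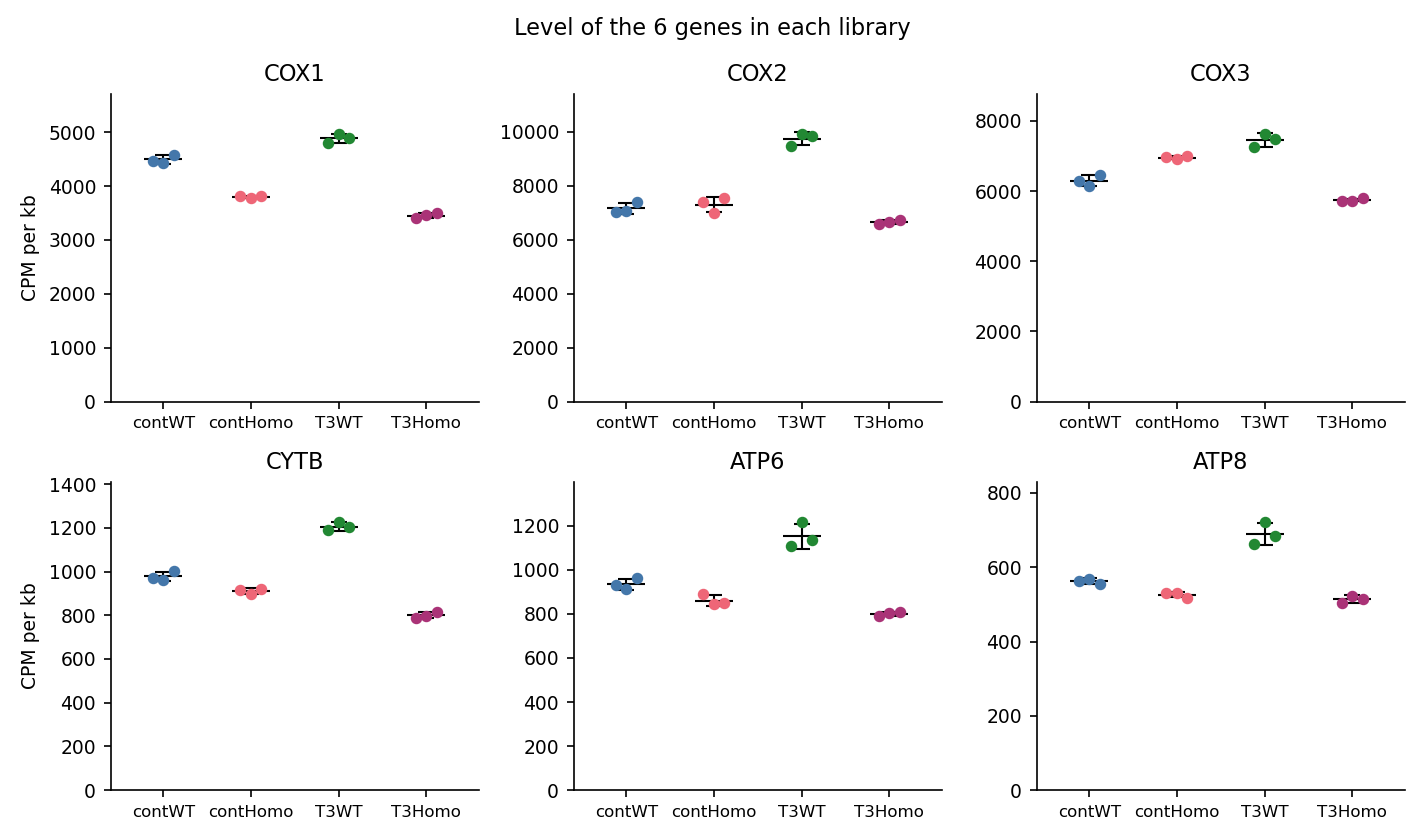
Level of each gene in CPM per kb in the 12 libraries (points), with the group mean and SD as bars; axes start at 0. On this TMM scale T3WT lies above the other groups for all 6 genes, and contHomo lies below contWT for COX1, CYTB, ATP6 and ATP8 and above it for COX3.

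The spread between technical libraries was small. The coefficient of variation of CPM within a group was between 0.600% and 4.91% over the 24 combinations of gene and group. Counting error alone gives 0.172% to 1.78% at these depths, and 22 of the 24 were above it. The 2 exceptions were ATP8 in contWT, with 1.37% where counting error gives 1.75%, and in contHomo, with 1.36% where it gives 1.78%.

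All 6 genes were higher in T3WT than in contWT with TMM factors and at total-count scaling. Relative to the 13 mitochondrial protein genes COX1 and COX3 turned negative, COX3 without passing the test. Read by column label, the comparison sets T3-treated against untreated wild type; read by title, TRα(-/-) against wild type without T3. COX2 rose most, by 0.45 ± 0.016 on the log2 scale (SE, edgeR quasi-likelihood test, adjusted p = 5.09e-45), which is 1.36-fold. COX1 rose least, by 0.12 ± 0.014 (edgeR adjusted p = 1.61e-13), or 1.09-fold. The rises of COX3, ATP8, CYTB and ATP6 were 0.24, 0.30, 0.30 and 0.30 on the log2 scale. The test passed for 6 of the 6 as higher at adjusted p below 0.05, in a comparison where 41.5% of the 13172 genes tested passed as higher and 37.0% as lower. None reached 2-fold, which 18.0% of all genes did in either direction. The median of the 6 was 0.30, beside 0.053 over all genes tested. At total-count scaling COX1 was at 0.52, COX2 at 0.84 and the other 4 between 0.64 and 0.70. There the medians of the 6 and of all genes were 0.69 and 0.45, and 81.3% of the calls over all genes were higher in place of 52.9%.

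In T3Homo vs contHomo, 5 of the 6 genes fell. Relative to the 13 mitochondrial protein genes, however, COX1, COX2, ATP8 and ATP6 turned positive, COX1 and COX2 without passing. CYTB did not pass on that scale, at -0.0070. With TMM factors COX3 fell most, by 0.27 ± 0.014 on the log2 scale (SE, edgeR adjusted p = 3.82e-32). Read by column label, the comparison sets T3-treated against untreated TRα(-/-). Read by title, it sets TRα(-/-) against wild type with T3 in both. CYTB had a log2 fold change of -0.19, COX1 of -0.14, COX2 of -0.13 and ATP6 of -0.11, all passing. ATP8 did not pass, at -0.033 ± 0.025 (95% interval -0.083 to 0.018, edgeR adjusted p = 0.261). Its edgeR adjusted p was 0.037 with RLE factors and 0.654 at total-count scaling, where its sign turned (log2 fold change 0.014). Over all 19 alternatives, DESeq2 among them, the adjusted p ranged from 1.34e-05 to 0.654. The lowest came from edgeR scaled to the 13 mitochondrial protein genes, where ATP8 instead rose, by 0.15. Without T3Homo replicate 1 ATP8 was at -0.017. At total-count scaling COX1 was at -0.092, COX2 at -0.087 and ATP6 at -0.059, all still passing as lower. Thus 5 of the 6 passed as lower, where 31.1% of all genes passed as lower and 32.3% as higher. None reached 2-fold, which 6.60% of all genes did. The median of the 6 was -0.14, beside 0.0021 over all genes tested.

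Between contHomo and contWT the 6 genes moved in both directions. The column labels make this a comparison of genotypes without T3, the titles one of T3 in wild type. COX1 fell by 0.24 ± 0.014 on the log2 scale (SE, edgeR adjusted p = 6.07e-30), while COX3 rose by 0.14 ± 0.014 (edgeR adjusted p = 3.62e-15). ATP6, CYTB and ATP8 were lower, at log2 fold changes of -0.12, -0.10 and -0.096. COX2 did not pass, at 0.028 ± 0.016 (95% interval -0.0033 to 0.060, edgeR adjusted p = 0.129). COX2 passed as higher without contWT replicate 3 (0.052), without contHomo replicate 2 (0.060), and with RLE factors, total-count scaling, scaling to the 13 mitochondrial protein genes or these groups alone. Without contHomo replicate 3 it was at 0.0066 and without contWT replicate 1 at 0.015, neither passing. Over all 19 alternatives its adjusted p ranged from 0.000226 to 0.781. In all, 1 of the 6 passed as higher and 4 as lower, where 24.5% of all genes passed as higher and 28.5% as lower. None reached 2-fold, which 5.97% of all genes did. The median of the 6 was -0.099, beside -0.024 over all genes tested.

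All 6 genes were lower in T3Homo than in T3WT with TMM factors, while relative to the 13 mitochondrial protein genes ATP8 and COX3 turned positive. On that scale COX1 and ATP6 did not pass, at -0.0076 and -0.032. With TMM factors the gaps between T3Homo and T3WT were the widest for COX1, COX2, ATP8, ATP6, COX3 and CYTB alike. The column labels make this a comparison of genotypes with T3, the titles one of T3 in TRα(-/-). CYTB fell most, by 0.59 ± 0.015 on the log2 scale (SE, edgeR adjusted p = 2.71e-56). COX3 fell least, by 0.38 ± 0.014 (edgeR adjusted p = 7.28e-43). COX2, ATP6, COX1 and ATP8 had log2 fold changes of -0.55, -0.53, -0.50 and -0.42. All 6 passed as lower, where 38.9% of all genes passed as lower and 37.2% as higher. None reached 2-fold, which 16.1% of all genes did. The median of the 6 was -0.51, beside -0.016 over all genes tested. At total-count scaling the 6 lay between -0.92 for CYTB and -0.71 for COX3. There the medians of the 6 and of all genes were -0.85 and -0.35, and 19.2% of the calls over all genes were higher in place of 48.9%.

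All 6 genes were lower in T3Homo than in contWT. Relative to the 13 mitochondrial protein genes, however, COX2, ATP8, ATP6 and COX3 turned positive, ATP6 without passing. T3Homo and contWT are the groups whose identity all labels share, TRα(-/-) with T3 and wild type without. COX1 fell most, with a change of -0.38 ± 0.014 on the log2 scale (SE, edgeR adjusted p = 9.54e-45). CYTB had -0.29, ATP6 -0.22, COX3 -0.13, ATP8 -0.13 and COX2 -0.11 on the same log2 scale. All 6 passed as lower, where 34.2% of all genes passed as lower and 34.5% as higher. None reached 2-fold, which 11.2% of all genes did. The median of the 6 was -0.18, beside 0.00056 over all genes tested. At total-count scaling COX2 was at -0.043, ATP8 at -0.067 and COX3 at -0.070, and all 6 still passed as lower. There the medians of the 6 and of all genes were -0.12 and 0.062.

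The interaction, (T3Homo minus contHomo) minus (T3WT minus contWT), was negative for all 6 genes with TMM factors. Relative to the 13 mitochondrial protein genes it turned positive for COX1, ATP8 and ATP6, for ATP6 without passing. It is the same number under either reading of the labels. COX2 had the largest value, -0.58 ± 0.023 (SE, edgeR adjusted p = 9.32e-42), and COX1 the smallest, -0.26 ± 0.019 (edgeR adjusted p = 2.43e-22). COX3, CYTB, ATP6 and ATP8 had interaction log2 values of -0.52, -0.49, -0.41 and -0.33. All 6 passed as lower, where 30.3% of all genes passed with a negative and 34.1% with a positive value. None reached 2-fold, which 15.6% of all genes did. The median of the 6 was -0.45, beside 0.011 over all genes tested. At total-count scaling the 6 lay between -0.93 for COX2 and -0.61 for COX1. There the medians of the 6 and of all genes were -0.80 and -0.34, and 19.0% of the calls over all genes were positive in place of 53.0%.

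**Figure D3:**
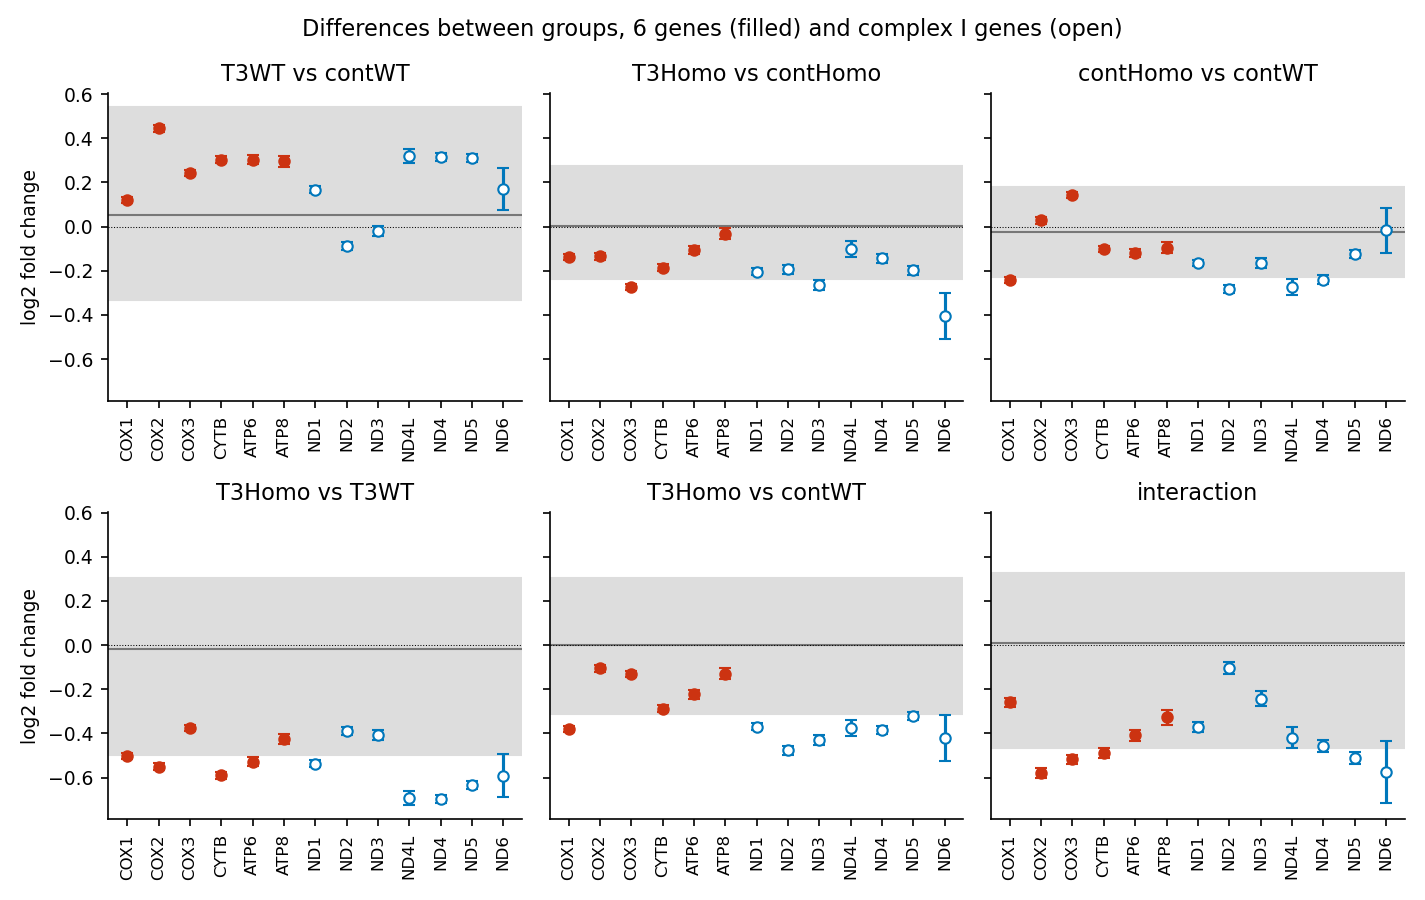
Log2 fold changes with SE (edgeR) of the 6 genes (filled) and of the 7 mitochondrial complex I genes (open) in 5 comparisons and the interaction. The grey line and band are the median and the middle 50% of the 13172 genes tested; all 6 genes lie above the line for T3WT vs contWT and below it for T3Homo vs T3WT.

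The 6 genes did not move as a unit. To compare them without the nuclear genes, each was expressed as a share of the counts of the 13 mitochondrial protein genes. COX1 held 33.3 ± 0.130% in contWT, 30.4 ± 0.186% in T3WT, 30.2 ± 0.115% in T3Homo and 29.4 ± 0.266% in contHomo. The contWT libraries were above all 9 others. COX2 held its smallest share in contWT, 23.5 ± 0.224%, and its largest in T3WT, 26.8 ± 0.175%, with contHomo at 24.98 ± 0.590% and T3Homo at 25.8 ± 0.0199%. COX3 held 27.1 ± 0.250% in contHomo and 25.4 ± 0.127% in T3Homo, above the 23.5 ± 0.140% of contWT and 23.4 ± 0.0585% of T3WT. The groups labelled Homo were thus both above the groups labelled WT for COX3, with no overlap. By title the former are the groups with T3 and the latter those without.

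CYTB held 5.50 ± 0.0450% in T3WT, 5.31 ± 0.00622% in contWT, 5.17 ± 0.00351% in contHomo and 5.15 ± 0.0451% in T3Homo. It was higher in both groups labelled WT than in both labelled Homo, the reverse of COX3. By title these are the groups without and with T3. ATP6 held between 2.92% in contHomo and 3.14% in T3WT. ATP8 held between 0.440% in contHomo and 0.486% in T3Homo. Over 6 genes and 5 comparisons of 2 groups, the libraries did not overlap in 25 of 30 shares. Over all genes tested, scaled in this way, 72.2% of the combinations of gene and comparison did not overlap. In a two-sided exact permutation test with 3 libraries a group, the smallest p is 0.1, which these 25 gave, with 0.12 after adjustment over the 30. Shares are tied to each other, so that a larger share of a gene lowers those of the rest.

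**Figure D4:**
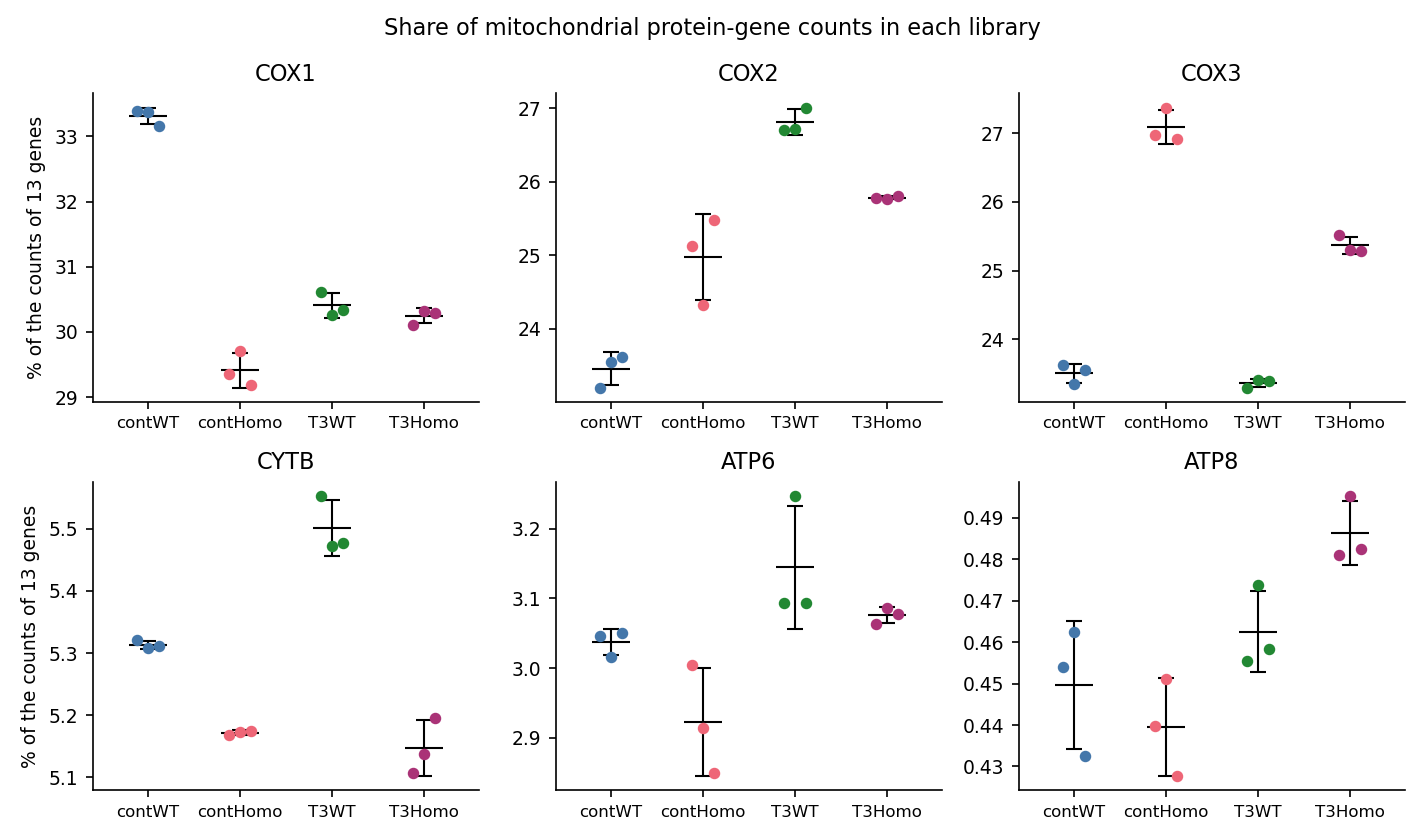
Share of the counts of the 13 mitochondrial protein genes held by each of the 6 genes in the 12 libraries (points), with group mean and SD; axes do not start at 0. COX1 is highest in contWT, COX2 in T3WT, and COX3 is higher in contHomo and T3Homo than in contWT and T3WT.

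With the summed counts of the 13 genes as library size, the edgeR test compared each gene with the mitochondrial messenger RNA as a whole. The 6 genes themselves held 89.1% of that sum in contWT and 90.1% in T3Homo. Movement they share is thus largely removed, and mixed signs among them are partly built in. Percentages over all genes on this scale include the shift of their median, given next. The median over all genes tested then moved to -0.20 in T3WT vs contWT, 0.18 in T3Homo vs contHomo, 0.037 in contHomo vs contWT, 0.48 in T3Homo vs T3WT, 0.24 in T3Homo vs contWT and 0.45 in the interaction. In contHomo vs contWT, COX1 fell by 0.18 ± 0.023 (SE, edgeR adjusted p = 2.33e-14) and COX3 rose by 0.21 ± 0.023 (edgeR adjusted p = 3e-18). There 2 of the 6 passed as higher, COX3 and COX2, and 2 as lower, COX1 and ATP6, where 30.2% of all genes passed as higher and 20.8% as lower. In T3WT vs contWT, COX2 rose by 0.19 ± 0.023 (edgeR adjusted p = 7.31e-17), CYTB by 0.050 ± 0.024 (edgeR adjusted p = 0.0473), and COX1 fell by 0.13 ± 0.023 (edgeR adjusted p = 1.38e-08). COX3, ATP6 and ATP8 did not pass. These are 2 higher and 1 lower, where 26.4% and 51.8% of all genes passed.

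On the same mitochondrial scale, ATP8 rose by 0.15 ± 0.032 in T3Homo vs contHomo (edgeR adjusted p = 1.34e-05) and ATP6 by 0.074 ± 0.025, while COX3 fell by 0.095 ± 0.023 (edgeR adjusted p = 7.68e-05). This gave 2 higher and 1 lower, where 50.0% of all genes passed as higher and 15.3% as lower. COX1, COX2 and CYTB did not pass. In T3Homo vs T3WT, COX3 rose by 0.12 ± 0.023 (edgeR adjusted p = 2.9e-07) and ATP8 by 0.072, and CYTB and COX2 were lower, at -0.096 and -0.056. COX1 and ATP6 did not pass. The shares over all genes were 66.9% higher and 17.6% lower. In T3Homo vs contWT, COX2, ATP8 and COX3 rose by 0.14, 0.11 and 0.11, and COX1 had -0.14, against 54.8% higher and 17.6% lower over all genes. ATP6 and CYTB did not pass there.

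The interaction on this scale was positive for COX1, at 0.17 ± 0.032 (SE, edgeR adjusted p = 1.83e-07), and for ATP8, at 0.11 ± 0.045 (edgeR adjusted p = 0.0251). It was negative for COX2, at -0.15 ± 0.032 (edgeR adjusted p = 9.6e-06), and for COX3, at -0.086 ± 0.032 (edgeR adjusted p = 0.0113). ATP6 and CYTB did not pass, at 0.024 and -0.057. Over all genes 61.2% passed as positive and 14.2% as negative.

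Ratios within a library, here inside cytochrome c oxidase, need no scaling between libraries. They come from the same counts as the shares, so their match with the shares is built in. The limit on non-overlap given with COX1 holds for the ratios too. The ratio of COX2 to COX1 per kilobase was 1.57, 1.60 and 1.61 in the contWT libraries, 1.97, 1.998 and 2.02 in T3WT, 1.94, 1.92 and 1.93 in T3Homo and 1.94, 1.85 and 1.98 in contHomo. The contWT libraries were below all others. The ratio of COX3 to COX1 was 1.404, 1.39 and 1.41 in contWT, 1.51, 1.54 and 1.53 in T3WT, 1.68, 1.66 and 1.66 in T3Homo and 1.82, 1.83 and 1.83 in contHomo, 4 groups without overlap. COX3 to COX2 was lowest in T3WT, at 0.765 ± 0.00445, and highest in contHomo, at 0.952 ± 0.0315. The 3 subunits of the enzyme were counted in proportions that differed between pools.

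CYTB to COX1 was 0.217 ± 0.000808 in contWT, 0.232 ± 0.00158 in T3Homo, 0.240 ± 0.00221 in contHomo and 0.247 ± 0.000581 in T3WT, again without overlap. CYTB to ATP6 stayed between 0.996 and 1.09 over the 12 libraries. For the overlapping genes ATP8 and ATP6 the ratio per kilobase was 0.602 ± 0.0238 in contWT, 0.612 ± 0.0171 in contHomo and 0.598 ± 0.00462 in T3WT, which overlapped. T3Homo, at 0.643 ± 0.00834, lay above these.

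**Figure D5:**
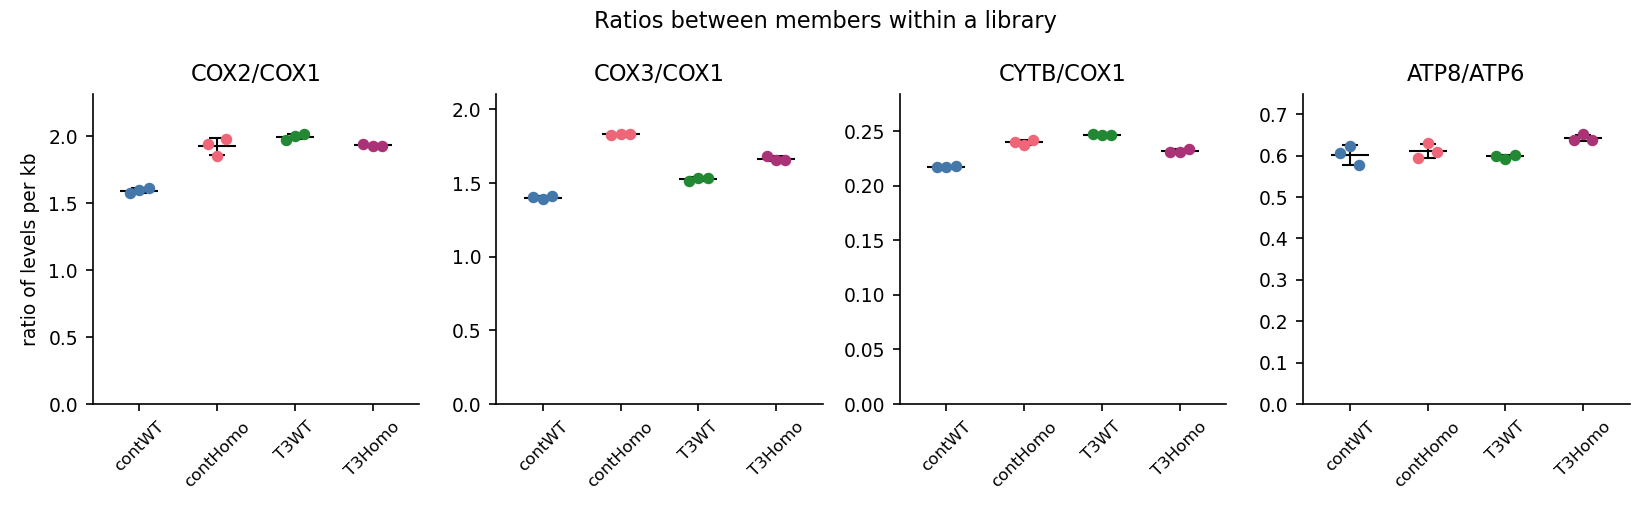
Ratios of levels per kb between members within each library (points), with group mean and SD; axes start at 0. COX2/COX1 is lowest in contWT, COX3/COX1 differs between all 4 groups, and ATP8/ATP6 lies between 0.576 and 0.652 in all libraries.

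The 7 complex I genes on the same DNA give the nearest comparison. They held 10.9 ± 0.0446% of the counts of the 13 genes in contWT, 10.3 ± 0.101% in T3WT, 9.99 ± 0.0644% in contHomo and 9.89 ± 0.0421% in T3Homo, and the rest fell to the 6 genes. The contWT libraries were above all others. The medians of the 6 and of the 7 were 0.30 and 0.17 for T3WT vs contWT. They were -0.14 and -0.20 for T3Homo vs contHomo, and -0.45 and -0.42 in the interaction. In T3Homo vs contWT they were -0.18 and -0.38, and 5 of the 6 had values nearer to 0 than any complex I gene. COX1 was the exception. With TMM factors all 7 complex I genes passed as lower in T3Homo vs contHomo, T3Homo vs T3WT and T3Homo vs contWT. In contHomo vs contWT 6 of the 7 passed as lower. In T3WT vs contWT 4 of the 7 passed as higher and 1 as lower. There ND4L, ND4 and ND5 rose by 0.32, 0.31 and 0.31, more than each of the 6 genes but COX2.

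Across the 12 libraries, CYTB was most like ND5, a complex I subunit (Pearson r of log2 CPM = 0.998), and COX1 most like ND1 (r = 0.983). ATP6 was most like CYTB (r = 0.983), ATP8 most like ATP6 (r = 0.977), COX2 most like ATP6 (r = 0.949) and COX3 most like COX2 (r = 0.860). COX3 and COX1, subunits of the same enzyme, had r = 0.690, the lowest value of COX1 with any of the other 12 genes. Each r rests on 4 groups of near-identical libraries and on shared scaling factors, and describes these 12 libraries. Among the 8019 tested genes with a mean of at least 5 CPM, the genes outside mitochondrial DNA most like the sum of the 6 were ENSXETG00000020160 (r = 0.994) and ENSXETG00000021380 (r = 0.993). Scaffold positions are those of the count table, whose build is not given in the sources used here. The first, on scaffold GL172645.1 from 4613654 to 4645876, averaged 15.3 ± 0.729 CPM in T3WT, 8.10 ± 0.0967 in contWT, 6.75 ± 0.0531 in contHomo and a low of 4.46 ± 0.0346 in T3Homo. The second, on GL172682.1 from 1543412 to 1597513, was at 37.4 ± 0.798, 26.3 ± 1.32, 24.6 ± 0.718 and 18.9 ± 0.433 CPM in the same order of groups. Both had wider relative gaps between T3WT and T3Homo than the 6 genes.

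Beside the 6 genes, the table holds 22 short mitochondrial rows of 66 to 75 bases, of which 7 adjoin a member. These 7 had 0 to 25 counts per library. The short row between COX2 and ATP8, from 7799 to 7872, had 16 counts in all 12 libraries together.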

How the data were processed

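The genome build, annotation, strand and treatment of multi-mapping reads were not given in the sources used here. The authors deposited whole-number read counts for 19921 genes in 12 libraries. Per the submitters' processing notes, STAR 2.5.3a and featureCounts 1.4.6-p3 were used. Counts were tested with edgeR 4.0.16 in R 4.3.3: filterByExpr kept 13172 genes, TMM factors were applied, all 12 libraries shared a fit with 1 coefficient per group, and Benjamini-Hochberg adjusted p below 0.05 passed. The test was tested on simulated data in which some genes changed in T3WT alone, equally up and down. Those data had the same spread beyond counting for all genes and far fewer changed genes than here. They held no shift in scaling like that of T3WT here, so they do not test the scaling. Their outcome is not given and is not used as support. DESeq2 1.42.0 and other scalings were alternatives. Groups follow the column labels. No identifier matched the reference table by ID and 13 matched by mitochondrial position, so nuclear gene lists and tissue markers were not analysed here. The named genes are the 6 members, the 7 complex I genes and, by Pearson r of log2(CPM + 0.5) among genes of at least 5 CPM, the 2 nuclear genes most like the summed members and each member's closest mitochondrial gene. Members and lists were chosen with earlier results of these data known. Shares were compared by exact permutation. Counting errors cover counting alone.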

Additional observations from a re-analysis of the deposited data

Results flagged for a closer look

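For all 6 genes the difference between T3Homo and contHomo differed from that between T3WT and contWT, by the interaction term of the edgeR fit with TMM factors. The interaction log2 values were -0.26 for COX1, -0.58 for COX2, -0.33 for ATP8, -0.41 for ATP6, -0.52 for COX3 and -0.49 for CYTB. Over all genes tested, 30.3% passed with a negative and 34.1% with a positive value. All 7 complex I genes passed with a negative value too, from -0.57 to -0.11, so the sign is not particular to the 6. Relative to the 13 mitochondrial protein genes, COX1, ATP8 and ATP6 had positive values of 0.17, 0.11 and 0.024, that of ATP6 without passing. The libraries are technical replicates of 1 pool a group, so the term compares 4 pools.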

How the results depend on the processing

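With RLE factors, no low-count filter, DESeq2, the replicate block or only the groups compared, no log2 fold change of the 6 genes changed sign. The labels do not say that a replicate number marks a shared animal or day, and same-numbered libraries did not deviate together (r from -0.022 to 0.038 over 18 pairs). With the replicate block 5 members passed in T3Homo vs contHomo and in contHomo vs contWT, where 63.6% and 53.3% of all genes passed. In the other comparisons 6 passed, where 64.5% to 78.6% of all genes did. At total-count scaling ATP8 turned to 0.014 in T3Homo vs contHomo. Scaling to the 13 mitochondrial protein genes left 11 of 36 values with the same sign and call. A further 9 kept their sign but no longer passed, and 1 passed only on this scale. The other 15 turned sign. These were COX1 -0.13 and COX3 -0.0088 in T3WT vs contWT, and COX1 0.040, COX2 0.046, ATP8 0.15 and ATP6 0.074 in T3Homo vs contHomo. They were ATP8 0.072 and COX3 0.12 in T3Homo vs T3WT, and COX2 0.14, ATP8 0.11, ATP6 0.018 and COX3 0.11 in T3Homo vs contWT. In the interaction they were COX1 0.17, ATP8 0.11 and ATP6 0.024. Of these 15, COX3 in T3WT vs contWT and COX1 and COX2 in T3Homo vs contHomo did not pass. Nor did ATP6 in T3Homo vs contWT or in the interaction. Not passing on this scale does not show that a difference is absent. CYTB in contHomo vs contWT did not pass, at -0.039, while its shares of 5.17 ± 0.00351% and 5.31 ± 0.00622% did not overlap. COX1 in T3Homo vs T3WT did not pass either, and its shares overlapped. That scaling subtracts the movement of the 13 genes together, and the 6 members hold most of their counts, so mixed signs are partly built in. On that scale 3 members passed in T3WT vs contWT, as did 3 in T3Homo vs contHomo, where 78.2% and 65.3% of all genes passed. Leaving out a library in turn gave 5 to 6 members in contHomo vs contWT and the reported count of 6 or 5 elsewhere. The frequency of calls over all genes in those fits was not given. With all 12 libraries, 53% to 78.5% of all genes passed, so these counts do not set the 6 genes apart. Leaving out a library gave 25 to 27 shares without overlap, a count it cannot lower, so this range does not test it. The share of all counts then ran from 2.69% to 2.75% in T3WT, 1.71% to 1.73% in contWT, 1.68% to 1.70% in contHomo and 1.53% to 1.55% in T3Homo. Without mitochondrial and the 100 most abundant other genes in the denominator it was 5.02%, 3.47%, 3.35% and 3.06% in the same order of groups, by construction of a smaller denominator. Depth limited ATP8 most, with the fewest counts of the 6.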

Other observations

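Of the mitochondrial rows that are no protein gene, 2 are long and 22 short. Only the protein genes were matched by position here, so these rows are given by identifier. These 3 were singled out after their values were seen. The long row ENSXETG00000034359, from 1082 to 2716, was at 5797 ± 127 CPM in contHomo, 4795 ± 211 in contWT, 4728 ± 74.96 in T3WT and 4323 ± 34.4 in T3Homo (SD, n = 3). Like COX3, it was higher in contHomo than in contWT, but T3WT was not its highest group. The other long row, ENSXETG00000034357, from 69 to 1011, was lower in contHomo, at 515 ± 0.863 CPM, than in contWT, at 564 ± 11.9. It was at 576 ± 11.6 CPM in T3WT and 455 ± 6.62 in T3Homo. The short row ENSXETG00000034392, from 15500 to 15566 and beyond CYTB, had 690 to 1443 counts per library, where the other 21 short rows had at most 118. It was at 17.9 ± 0.645 CPM in T3Homo, 29.7 ± 1.28 in T3WT, 30.9 ± 1.42 in contHomo and 33.6 ± 0.473 in contWT.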
